A study of Mus musculus with 8 samples.

Results

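The comparison described here is the interaction of genotype and stress in mouse brain: the log2 effect of chronic restraint stress in mice with cerebral amyloid angiopathy (CAA) minus its effect in wild-type (WT) mice. It takes in all 8 libraries of the study, 2 in each of 4 groups, and the 17182 genes with enough counts to test of the 54532 in the deposited table. WT mock and CAA mock are the mock-treated mice of each genotype, and WT stress and CAA stress are mice of each genotype under chronic restraint stress. All mice were perfused with PBS before RNA was taken. The strain or transgene behind CAA, the length of the stress, and the age of the mice are not stated in those sources that were used here. Replicates carry numbers only, with no word on whether they are separate animals. In WT mock and CAA stress the replicates differed in sex by their counts, so these are not repeats of the same animal. P-values measure the spread between these samples, which in WT stress and CAA mock may be technical. A positive value means a higher stress-to-mock ratio in CAA than in WT, and it can come from either genotype.

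In CAA, amyloid-beta accumulates in the walls of small cerebral arteries and capillaries, around smooth muscle cells, pericytes and the endfeet of astrocytes. Restraint is a standard psychological stressor of rodents that activates the hypothalamus, pituitary and adrenal cortex, and the glucocorticoids released act on genes in neurons, glia and vessels. The study's stated interest was neutrophil extracellular traps, the DNA nets studded with granule proteins that activated neutrophils cast out. An interaction term asks a narrower question than a list of stress genes, since it is 0 for any gene that stress moves equally in both genotypes.

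The libraries held 17275201 to 18894657 counts and were not alike in what they contained. By the X-inactivation RNA Xist (4575 and 3340 counts against 0 to 24 elsewhere) and the Y-linked genes (0 counts against 2260 to 2833), WT mock 1 and CAA stress 1 came from females and the other 6 from males. Both female libraries enter the interaction with a plus sign. Each shares its group with a male library, so a term for sex and the 6 males alone mostly give close values. They are not separate checks. Neuronal Camk2a (2903 to 4179.6 CPM, counts scaled to library size) and glial Gfap (162 to 676) were present in each, as the brain label implies. WT mock 1 and CAA mock 2 were low in striatal markers (mean centred log2 level -2.13 and -1.98, against 0.028 to 1.05), WT stress 2 and CAA stress 1 were high in choroid plexus markers (1.91 and 1.59, against at most 0.64), and WT stress 1 was high in hemoglobin. The female WT mock 1 was thus also low in striatal markers, and the female CAA stress 1 also high in choroid plexus markers. Sex cannot be told apart from these in the 2 libraries. Mitochondrial genes took 6.10% of the counts in CAA stress 2 and 7.89 to 9.99% in the others.

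Of the 17182 genes, 0 passed an adjusted p of 0.05 for the interaction in edgeR's quasi-likelihood test with Benjamini-Hochberg adjustment, that is 0% in either direction. The smallest adjusted p was 0.995. At an unadjusted p under 0.05 there were 595 genes (3.46%), against 859 expected if no gene differed, of which 341 (1.98%) were positive and 254 (1.48%) negative. On the deposited FPKM values limma called 0, with 649 genes at an unadjusted p under 0.05. DESeq2 called 1 gene, Xist, with an adjusted p of 0.0303. Its counts of 4575 in WT mock 1 and 3340 in CAA stress 1 follow the sex of the libraries. The middle 50% of genes had an interaction between -0.26 and 0.28 on the log2 scale, around a median of 0.0041, and the median standard error was 0.35. In simulated counts with 2 libraries a group, this test recovered 13.4% of genes with a 2-fold interaction, 67.2% of those with 4-fold and 87.9% of those with 8-fold, and 10.4% of its calls were false. In those simulated counts a 2-fold interaction was therefore mostly not detected. They were drawn independently around 1 mean per gene, without the differences in sex and marker content of the real libraries. Recovery in the real libraries was not measured and may differ.

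The stress effects that make up the interaction gave 0 calls each in edgeR at an adjusted p of 0.05. At an unadjusted p under 0.05 there were 273 genes (1.59%) in WT and 1193 (6.94%) in CAA, against 859 expected in each if no gene differed. When the trend on GC content described below was removed, the counts were 295 in WT and 841 in CAA. The 2 stress effects share no library. Across the 17182 genes they had a Pearson correlation of 0.096 and a Spearman correlation of 0.095, a description over genes that are not independent replicates. Among the 9921 genes of at least 10 CPM (TMM-normalised) the Pearson correlation was -0.062 and the Spearman 0.081. So a gene's stress effect in WT told little of its stress effect in CAA in these libraries. Each effect came from few libraries, with a median standard error of 0.25 beside an SD across genes of 0.47 in WT and 0.50 in CAA. Such error lowers a correlation, so the low value does not show that the genotypes responded differently. Each genotype gives 4 stress-minus-mock pairs of libraries. In 1299 genes (7.56%) all 4 CAA pairs lay above all 4 WT pairs, and in 1350 (7.86%) all lay below. Pairs of opposite sign were fewer, with 367 genes (2.14%) higher under stress in all CAA pairs and lower in all WT pairs, and 412 (2.4%) the reverse.

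**Figure D1:**
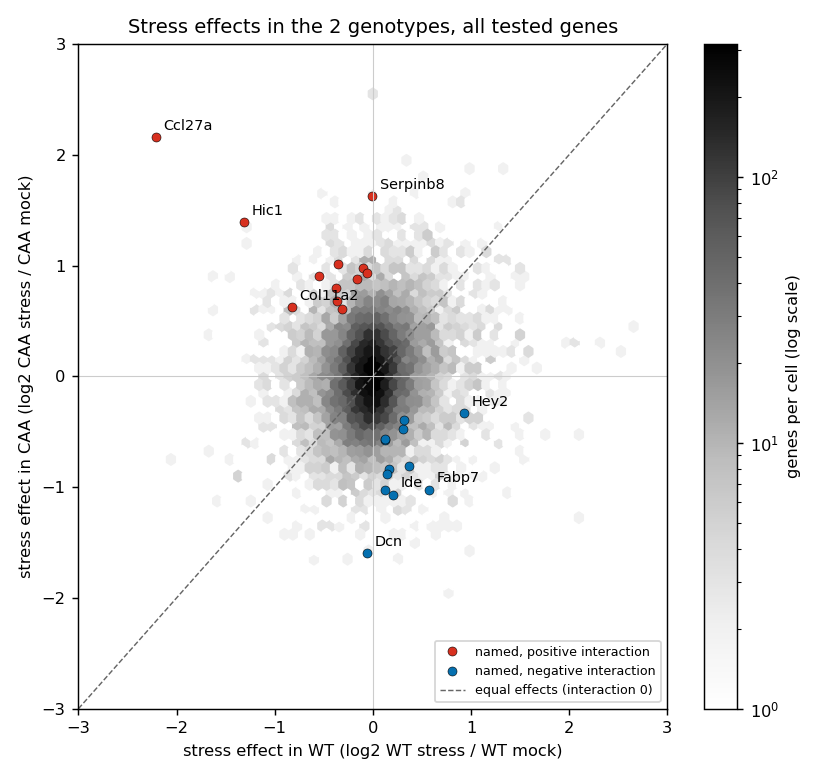
Log2 stress effect in WT (x axis) against that in CAA (y axis) for the tested genes, with shading for the number of genes and coloured points for the 24 genes named by smallest p. The cloud is centred near 0 with a Pearson correlation of 0.096, and 60 genes with an effect beyond 3 in either genotype lie outside the axes.

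The interaction moved with the base composition of the genes. Across the 17163 genes with a known GC content, which is the share of G and C bases in the gene's transcripts, its Spearman correlation with GC content was 0.41, and with gene length 0.068. In the decile of genes lowest in GC (22.06 to 42.02%) the median interaction was -0.29, and in the highest decile (57.91 to 75.46%) it was 0.32. The stress effect in CAA carried most of this, from -0.24 in the lowest decile to 0.25 in the highest, while in WT it ran from 0.027 to -0.072. In each library the median centred level of the highest decile minus that of the lowest was taken as its GC slope. It was -0.076 and -0.21 in WT mock, -0.44 and -0.050 in WT stress, 0.21 and -0.32 in CAA mock, and 0.44 and 0.45 in CAA stress. Both CAA stress libraries thus had the largest positive slopes of the 8, and the CAA mock libraries had slopes of opposite sign. The 4 CAA pairs differed in slope by 0.23 to 0.77, and the 4 WT pairs by -0.36 to 0.16. GC content is a property of the transcript that library preparation and RNA quality can also track, and their part in the result was not tested. When the smooth trend on GC was taken out of each library, the correlation became 0.014, 401 genes had an unadjusted p under 0.05, and the edgeR calls stayed at 0.

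**Figure D2:**
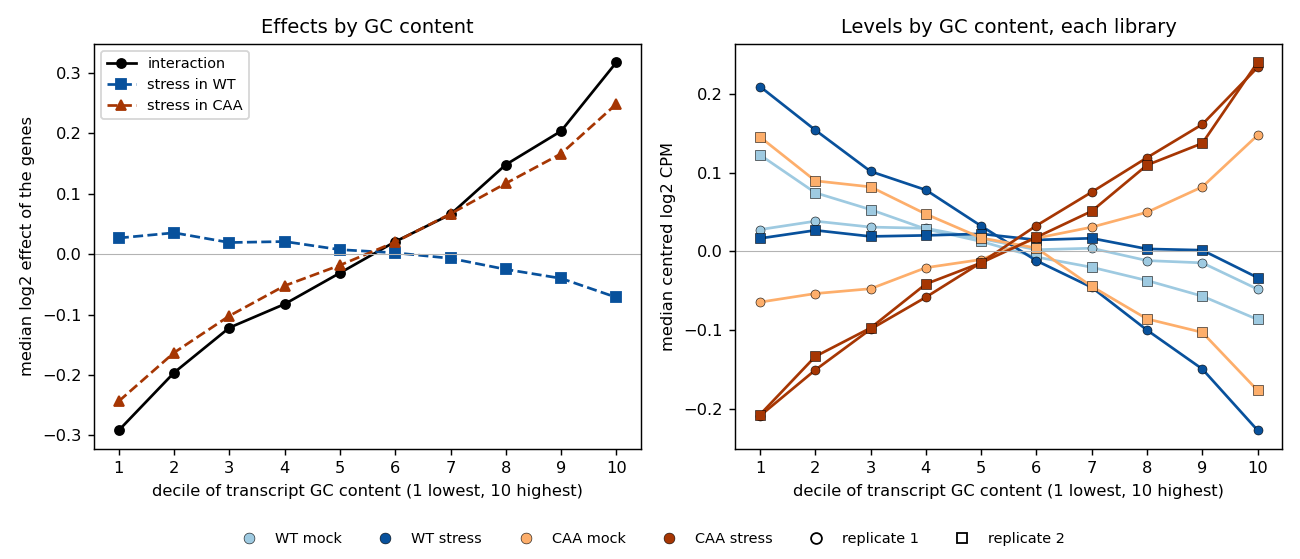
Median log2 effect (left) and median centred log2 CPM of each library (right) in deciles of the genes by transcript GC content. The interaction climbs from -0.29 to 0.32, and both CAA stress libraries climb from -0.21 to 0.23 or 0.24.

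The genes with the smallest unadjusted p differed in GC content between the directions. The 12 named in the positive direction had a median GC content of 58.65% among those with a known value, and the 12 named in the negative direction 42.49%, against 49.95% over all tested genes. The exceptions were Serpinb8, positive at 43.4%, and Rps27, negative at 52.5%, whose interaction was -1.11 with the GC trend removed. The sequences below show this contrast in 2 named genes of each direction chosen for their GC content and in a mitochondrial tRNA. They give the first 90 coding bases, or the whole tRNA, 5′ to 3′ from GENCODE vM21, with every G and C in capitals.
Adra1d (positive, 65.4% over the gene, 68.9% here): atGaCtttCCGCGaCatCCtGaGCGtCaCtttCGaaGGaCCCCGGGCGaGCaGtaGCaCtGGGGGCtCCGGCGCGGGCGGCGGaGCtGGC
Hic1 (positive, 64.5% over the gene, 53.3% here): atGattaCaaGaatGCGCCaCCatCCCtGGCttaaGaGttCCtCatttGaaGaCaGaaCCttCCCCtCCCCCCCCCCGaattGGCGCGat
Polr2k (negative, 38.4% over the gene, 45.6% here): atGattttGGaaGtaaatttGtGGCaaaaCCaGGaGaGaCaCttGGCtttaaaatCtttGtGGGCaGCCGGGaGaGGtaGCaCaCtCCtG
Dcn (negative, 40.1% over the gene, 44.4% here): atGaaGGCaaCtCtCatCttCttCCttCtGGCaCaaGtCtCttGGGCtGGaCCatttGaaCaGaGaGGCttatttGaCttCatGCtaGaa
mt-Tp (negative, 44.8%): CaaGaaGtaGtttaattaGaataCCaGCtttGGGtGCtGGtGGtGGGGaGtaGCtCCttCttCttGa
The 24 genes were chosen by p, which also fixes that their pairs do not overlap, so their values are a description and none passed the adjusted test (edgeR, Benjamini-Hochberg, adjusted p = 0.995 for each).

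The first group of positive genes act in neurons. Cux2 (chr5:121856366-122050102, mm10, minus strand) encodes a homeodomain factor of upper-layer cortical neurons, and it was counted at 91.2 and 65.5 CPM in WT mock, 70.01 and 51.2 in WT stress, 53.9 and 46.4 in CAA mock and 74.7 and 99.9 in CAA stress. The interaction was 1.17 ± 0.31 (SE), from -0.37 ± 0.22 in WT and 0.80 ± 0.22 in CAA. Both CAA stress libraries lay above both CAA mock libraries, while in WT the groups overlapped. Dagla (chr19:10245265-10304877, minus strand) makes the endocannabinoid 2-arachidonoylglycerol. It stood at 102 and 73.7 CPM in WT mock, 71.4 and 69.5 in WT stress, 63.7 and 60.2 in CAA mock and 85.7 and 103 in CAA stress, an interaction of 0.92 ± 0.25 (SE). The CAA groups did not overlap, and both WT stress values lay just below both WT mock values. Tspoap1 (chr11:87760541-87785928, plus strand) encodes a scaffold of the presynaptic active zone. It had 165 and 145 CPM in WT mock, 112 and 165 in WT stress, 112 and 90.8 in CAA mock and 189 and 184 in CAA stress. Its interaction was 1.04 ± 0.28 (SE), with CAA stress above CAA mock by 0.88 ± 0.20 and overlapping WT groups. Car7 (chr8:104534689-104550343, plus strand), a carbonic anhydrase of neurons, had 10.3 and 10.2 CPM in WT mock, 7.94 and 8.05 in WT stress, 4.67 and 6.87 in CAA mock and 10.8 and 12.5 in CAA stress, which gives 1.37 ± 0.35 (SE). Its lowest values of the 8 libraries were the 2 of CAA mock. Adra1d (chr2:131545850-131562283, minus strand), an alpha-1 adrenergic receptor for noradrenaline, had 26.4 and 18.9 CPM in WT mock, 14.3 and 16.7 in WT stress, 14.2 and 10.4 in CAA mock and 17.2 and 28.8 in CAA stress. Its interaction was 1.45 ± 0.39 (SE), and 0.95 with the GC trend removed. In WT both stress values lay below both mock values, and in CAA both lay above.

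In the second group are a clock gene and genes of vessels and structure. Per2 (chr1:91415982-91459324, minus strand), a repressor of the circadian clock, had 25.1 and 20.2 CPM in WT mock, 17.7 and 17.4 in WT stress, 14.7 and 12.7 in CAA mock and 19.6 and 24.1 in CAA stress. The interaction was 1.04 ± 0.28 (SE), and 0.91 with the GC trend removed. Both genotypes separated stress from mock, in opposite directions. Adgra2 (chr8:27085583-27123436, plus strand) is the receptor GPR124, which works with WNT7 signals in brain endothelium and whose annotated span overlaps that of Brf2 by 73 bases. It had 11.4 and 10.7 CPM in WT mock, 10.4 and 10.2 in WT stress, 8.002 and 9.24 in CAA mock and 15.5 and 18.5 in CAA stress. The 4 WT values lay within a narrow range, CAA mock lay below it and CAA stress above it, an interaction of 1.09 ± 0.30 (SE). Plec (chr15:76170974-76232574, minus strand) encodes plectin, a linker of intermediate filaments. It had 119 and 103 CPM in WT mock, 99.2 and 115 in WT stress, 89.6 and 79.99 in CAA mock and 131 and 193 in CAA stress, an interaction of 0.99 ± 0.28 (SE) that was 0.63 with the GC trend removed. CAA stress 2 held the highest Plec value. Col11a2 (chr17:34039437-34066685, plus strand), a fibrillar collagen chain, had 11.7 and 7.92 CPM in WT mock, 4.21 and 6.89 in WT stress, 9.05 and 8.73 in CAA mock and 13.7 and 13.8 in CAA stress, an interaction of 1.45 ± 0.40 (SE). Its CAA stress libraries were the 2 highest and its WT stress libraries the 2 lowest.

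The last 3 positive genes belong to neither group. Hic1 (chr11:75164565-75169519, minus strand), a transcriptional repressor, had 1.83 and 1.46 CPM in WT mock, 0.876 and 0.441 in WT stress, 0.818 and 0.676 in CAA mock and 2.24 and 1.71 in CAA stress. This was the second largest interaction of the 12, 2.71 ± 0.74 (SE), and stress and mock separated in both genotypes in opposite directions. Serpinb8 (chr1:107590006-107610484, plus strand), an intracellular protease inhibitor, had 8.28 and 10.4 CPM in WT mock, 11.5 and 7.11 in WT stress, 2.39 and 2.42 in CAA mock and 5.94 and 8.95 in CAA stress. Its interaction of 1.63 ± 0.45 (SE) rested on the 2 low CAA mock libraries, since WT gave -0.0046 ± 0.31. Ccl27a, a chemokine best known in skin, is annotated here as a copy on an unplaced scaffold, with near-identical copies elsewhere in the genome, so its reads are uncertain. It had 8.02 and 2.92 CPM in WT mock, 1.31 and 1.05 in WT stress, 0.117 and 1.01 in CAA mock and 2.18 and 2.95 in CAA stress, an interaction of 4.36 ± 1.02 (SE). WT mock 1 held 149 counts and CAA mock 1 held 2.

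**Figure D3:**
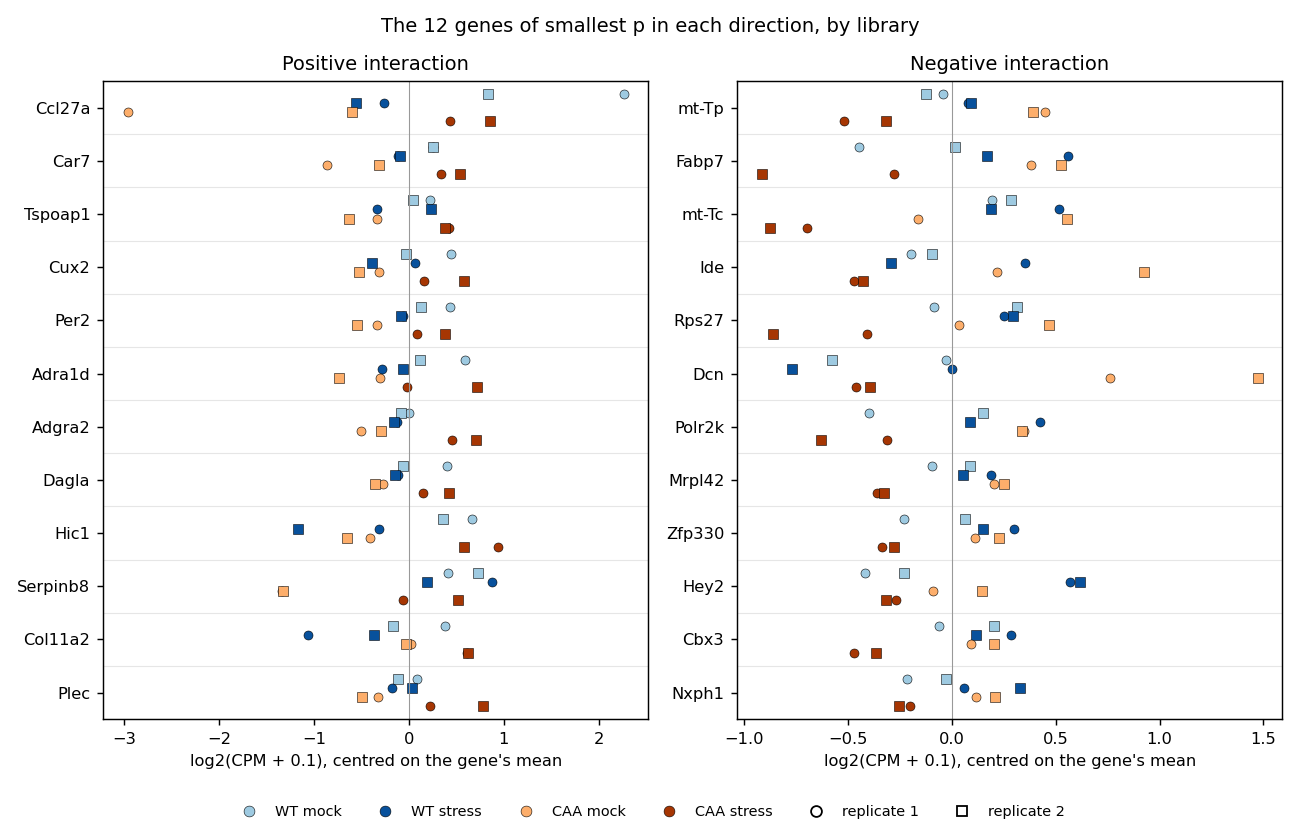
Log2(CPM + 0.1) of the 24 genes of smallest p in each library, centred on the mean of each gene. On the left CAA stress points lie to the right of CAA mock points in each gene, and on the right they lie to the left.

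Among the 12 negative genes, the smallest p belonged to the mitochondrial tRNA for proline. mt-Tp (MT, 15356 to 15422, minus strand) had 48.2 and 45.6 CPM in WT mock, 52.4 and 53.03 in WT stress, 67.99 and 65.2 in CAA mock and 34.6 and 39.9 in CAA stress. Its interaction was -1.01 ± 0.21 (SE) with an unadjusted p of 5.54e-04 in edgeR. CAA mock held the 2 highest values and CAA stress the 2 lowest, with the 4 WT values between them. The tRNA for cysteine, mt-Tc (MT, 5192 to 5257, minus strand), had 71.4 and 76.1 CPM in WT mock, 89.3 and 71.05 in WT stress, 55.8 and 91.6 in CAA mock and 38.4 and 33.97 in CAA stress, an interaction of -1.15 ± 0.31 (SE) that was -0.76 with the GC trend removed. CAA stress again held its 2 lowest values. Both are transcripts of under 100 bases, and no source used here says how such short RNAs were retained.

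The next negative genes mark glia and vessels or degrade amyloid. Fabp7 (chr10:57784881-57788450, plus strand), the brain fatty acid-binding protein of radial glia and astrocytes, had 37.8 and 52.1 CPM in WT mock, 76.1 and 57.99 in WT stress, 67.3 and 74.4 in CAA mock and 42.5 and 27.3 in CAA stress. In WT both stress values lay above both mock values, and in CAA both lay below, an interaction of -1.60 ± 0.33 (SE) with an unadjusted p of 5.98e-04 in edgeR. With the GC trend removed the value was -1.37. Ide (chr19:37268743-37337852, minus strand) encodes insulin-degrading enzyme, a metalloprotease that cleaves insulin and amyloid-beta. It had 51.0 and 54.8 CPM in WT mock, 74.7 and 47.7 in WT stress, 68.1 and 111 in CAA mock and 42.1 and 43.4 in CAA stress, an interaction of -1.28 ± 0.36 (SE). CAA mock 2 stood apart at the top, and both CAA stress values were the lowest of the 8. Without WT mock 1 and CAA mock 2, the libraries low in striatal markers, the value for Ide was -0.83. Dcn (chr10:97479609-97518143, plus strand) encodes decorin, a small proteoglycan of perivascular and meningeal fibroblasts. It had 18.8 and 12.9 CPM in WT mock, 19.2 and 11.2 in WT stress, 32.7 and 53.6 in CAA mock and 13.96 and 14.6 in CAA stress. Its interaction of -1.54 ± 0.44 (SE) was made of -1.59 ± 0.31 in CAA and -0.057 ± 0.31 in WT, and both CAA mock values lay above the other 6. Hey2 (chr10:30832359-30842801, minus strand), a Notch target of arterial cells, had 3.28 and 3.76 CPM in WT mock, 6.62 and 6.83 in WT stress, 4.15 and 4.90 in CAA mock and 3.65 and 3.54 in CAA stress. Here the larger effect was in WT, 0.93 ± 0.28, against -0.33 ± 0.29 in CAA, an interaction of -1.26 ± 0.40 (SE).

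The other 6 negative genes include parts of the machinery of expression. Rps27, a protein of the small ribosomal subunit, had 142 and 187 CPM in WT mock, 179 and 185 in WT stress, 155 and 208 in CAA mock and 114 and 83.04 in CAA stress, an interaction of -1.03 ± 0.29 (SE). Polr2k, a small subunit shared by the RNA polymerases, had 7.48 and 11.003 CPM in WT mock, 13.4 and 10.5 in WT stress, 12.6 and 12.6 in CAA mock and 7.96 and 6.38 in CAA stress, an interaction of -1.18 ± 0.36 (SE). In both genes CAA stress held the lower end of the CAA values. Mrpl42 (mitochondrial ribosome), Zfp330 (a zinc finger protein), Cbx3 (a heterochromatin protein) and Nxph1 (a secreted ligand of neurexin) had interactions of -0.69, -0.78, -0.69 and -0.71. Each had CAA stress below CAA mock in both libraries. All 24 genes kept their sign in each of the 19 other settings tried. As they were chosen by small p in these same libraries, that was nearly fixed in advance and adds no support. Removing the GC trend brought Cbx3 to -0.44.

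Of the gene lists, the circadian clock was the one whose 4 CAA pairs all lay above the 4 WT pairs in mean level. The clock is a loop in which CLOCK or NPAS2 with ARNTL activates the Per and Cry repressors through E-boxes, while DBP, TEF and HLF act on D-boxes. Of 17 clock genes, 15 had a positive interaction (50.4% of all tested genes did), the median was 0.37 against 0.0041 over all genes, and 0 passed the adjusted test in edgeR. In 5 of them all CAA pairs lay above all WT pairs, against 7.56% of all genes, and 3 were positive with an unadjusted p under 0.05, against 1.98% of all genes. The mean centred log2 level of the list was 0.27 and -0.029 in WT mock, -0.13 and 0.018 in WT stress, -0.17 and -0.14 in CAA mock and 0.16 and 0.034 in CAA stress. WT mock 1 was the highest of the 8 and CAA mock held the 2 lowest. Leaving out each library in turn gave medians of 0.18 to 0.46, the 6 male libraries 0.18 and removal of the GC trend 0.40. Time of day at collection moves these genes in any tissue and is not stated in any source used here, so it cannot be told apart from the groups.

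For the promoters of the clock genes, 14 of the 17 were matched in RefSeq (GRCm38.p6, 250 bases before to 50 after the start), with 19 starts. Those of Ciart and Per3 are shown, 5′ to 3′ on the gene's strand, because they hold the most E-box and D-box letters of the set. Capitals mark CACGTG in Ciart, where 3 copies stand, and TTATGTAA in Per3, where 2 stand.
Ciart (chr3:95882179-95882478, minus strand): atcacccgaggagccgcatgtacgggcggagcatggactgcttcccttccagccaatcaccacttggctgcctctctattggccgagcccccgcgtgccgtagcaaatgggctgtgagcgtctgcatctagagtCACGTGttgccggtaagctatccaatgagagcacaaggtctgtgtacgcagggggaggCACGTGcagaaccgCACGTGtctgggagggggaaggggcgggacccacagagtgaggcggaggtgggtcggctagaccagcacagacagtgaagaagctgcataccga
Per3 (chr4:151044616-151044915, minus strand): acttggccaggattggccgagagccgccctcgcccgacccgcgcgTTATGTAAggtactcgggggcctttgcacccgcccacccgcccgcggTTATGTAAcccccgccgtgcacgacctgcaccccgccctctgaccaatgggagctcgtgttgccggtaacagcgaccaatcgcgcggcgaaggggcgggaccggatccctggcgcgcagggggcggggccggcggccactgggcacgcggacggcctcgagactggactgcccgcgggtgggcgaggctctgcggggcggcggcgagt
Searched on both strands, CACGTG was in 6 of the 19 clock promoters (5 genes) and in 7.15% of all 32851 promoters. TTATGTAA was in 1 of the 19 and in 0.938% of all. The E-prime letters CACGTT were in 3 of the 19 and 4.68% of all, and the cyclic AMP element TGACGTCA in 1 and 1.79%. Such a match is a run of letters and not a measured binding site.

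With all 8 libraries and no sex term, the largest clock interaction was that of an output gene of the loop. Dbp, a D-box activator whose annotated span overlaps that of Sphk2 on the other strand by 737 bases, had 87.6 and 39.4 CPM in WT mock, 31.1 and 37.3 in WT stress, 49.9 and 46.1 in CAA mock and 109.97 and 63.2 in CAA stress. The interaction was 1.74 ± 0.56 (SE), from -0.89 ± 0.39 in WT and 0.85 ± 0.39 in CAA. CAA stress 1 and WT mock 1, the 2 female libraries, held the highest Dbp values. With a sex term the value for Dbp was 0.61, and in males, nearly the same comparison, also 0.61. These are below the 1.04 and 1.03 of Per2. Leaving out WT mock 1 gave 1.05 for Dbp. Per3, a Per repressor that lies inside the annotated span of Camta1, had 32.3 and 22.5 CPM in WT mock, 24.7 and 22.3 in WT stress, 13.7 and 19.04 in CAA mock and 25.6 and 25.3 in CAA stress, an interaction of 0.85 ± 0.31 (SE). Both CAA mock values lay below the other 6. Ciart, a repressor of CLOCK and ARNTL, had 13.6 and 4.49 CPM in WT mock, 4.87 and 7.44 in WT stress, 6.37 and 7.66 in CAA mock and 12.3 and 9.0004 in CAA stress, an interaction of 1.16 ± 0.64 (SE) with overlapping pairs. Of the other repressors, Per1 had 0.46 ± 0.31 (SE), Bhlhe40 0.51 ± 0.25 (SE), Bhlhe41 0.43 ± 0.36 (SE), Nr1d1 0.37 ± 0.45 (SE), Cry2 0.27 ± 0.27 (SE) and Cry1 0.11 ± 0.27 (SE). Hlf, Tef and Nr1d2, which act in the accessory arms of the clock, had 0.29, 0.18 and 0.24. The 2 negative values were those of core activators. Arntl had -0.26 ± 0.34 (SE) and Clock -0.17 ± 0.26 (SE), and Npas2 had 0.060 ± 0.29 (SE). None of these 3 exceeded its standard error.

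**Figure D4:**
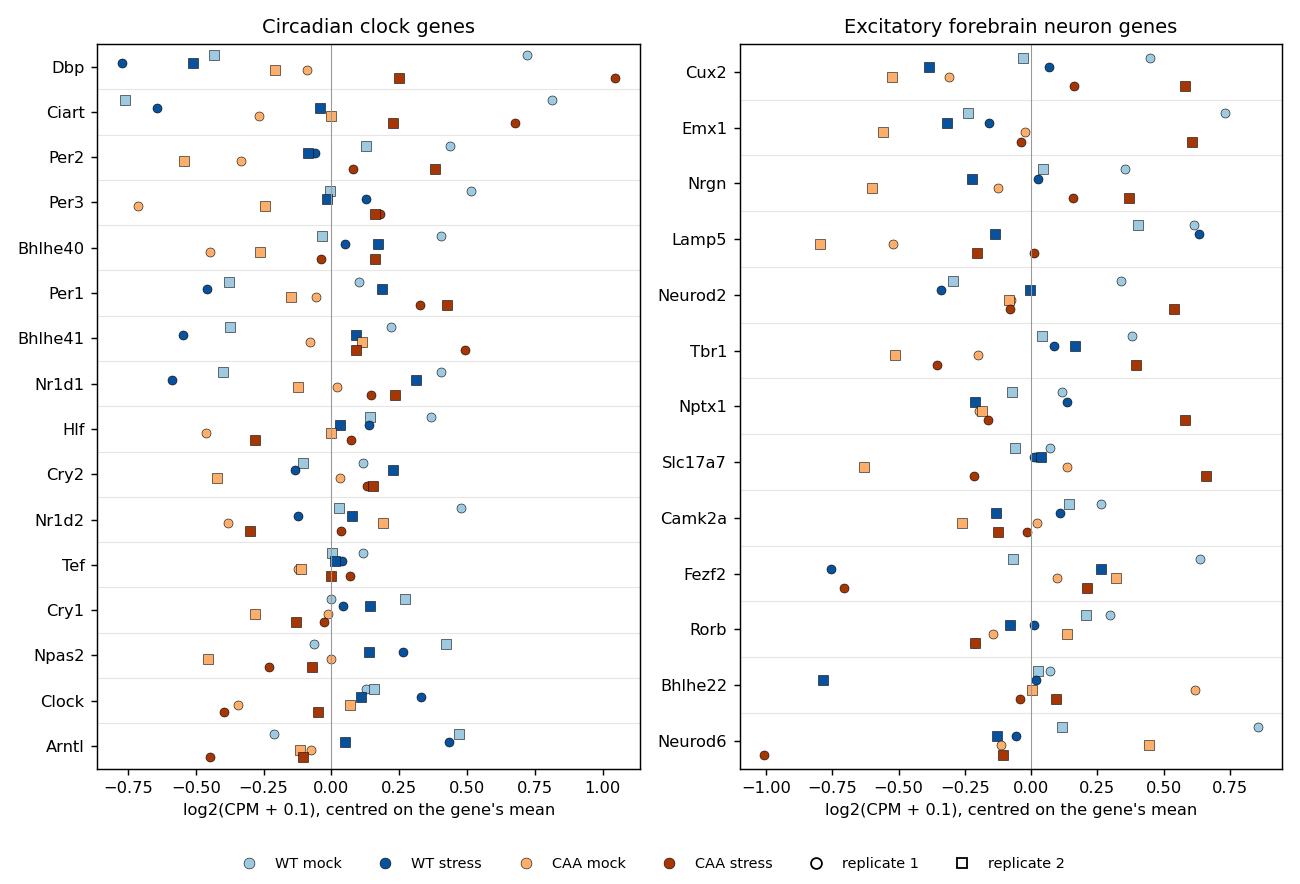
Log2(CPM + 0.1) of 16 of the 17 clock genes (left) and 13 of the 14 excitatory forebrain neuron genes (right) in each library, centred on the mean of each gene and ordered by interaction. For Dbp, Ciart and Per2 at the top left, WT mock 1 and the CAA stress libraries lie to the right, and the bottom rows on each side show no such order.

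Excitatory neurons of the forebrain release glutamate and are marked here by cortical transcription factors and synaptic genes. Of the 14 markers, 13 had a positive interaction, with a median of 0.51. In 4 all CAA pairs lay above all WT pairs, against 7.56% of all genes, and 5 were positive with an unadjusted p under 0.05, against 1.98% of all genes. In this list 0 passed the adjusted test in edgeR. The mean centred level was 0.43 and 0.040 in WT mock, -0.0091 and -0.14 in WT stress, -0.12 and -0.26 in CAA mock and -0.22 and 0.28 in CAA stress. WT mock 1 and CAA stress 2 were the highest of the 8. The median ran from 0.15 without CAA stress 2 to 0.85 without CAA stress 1, and it was 0.33 with the GC trend removed. Without WT mock 1 and CAA mock 2 together, the libraries low in striatal markers, it was 0.20. Nrgn, a calmodulin-binding protein of dendritic spines, had 1169 and 945 CPM in WT mock, 931 and 784 in WT stress, 838 and 604 in CAA mock and 1020.5 and 1181 in CAA stress, an interaction of 0.91 ± 0.28 (SE). In WT both stress values lay below both mock values, and in CAA both lay above. Emx1 had 1.16 ± 0.49 (SE) and Lamp5 0.78 ± 0.33 (SE). The kinase gene Camk2a had 0.25 ± 0.24 (SE) and the vesicular glutamate transporter gene Slc17a7 0.47 ± 0.43 (SE). In bulk tissue, fewer cells of a type and less RNA per cell cannot be told apart, and the share of cortex in each sample was not measured.

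The related neuronal lists had medians nearer to that of all genes. Synaptic genes were positive in 12 of 20, with a median of 0.12. That median was -0.065 without WT mock 1 and CAA mock 2 together, and -0.043 without CAA stress 2. The scaffold genes Bsn, Shank1 and Shank3 had 0.70 ± 0.31 (SE), 0.63 ± 0.28 (SE) and 0.66 ± 0.32 (SE). Their GC contents lie between 58.8% and 62.5%, in the highest decile of genes. Inhibitory interneuron markers were positive in 7 of 15 with a median of -0.0069, a sign that changed in 9 of the other settings. Among them the neuropeptide Cck had 264 and 203 CPM in WT mock, 194 and 196 in WT stress, 212 and 166 in CAA mock and 211 and 261 in CAA stress, an interaction of 0.58 ± 0.26 (SE). Immediate early genes, which neuronal activity induces, were positive in 12 of 20 with a median of 0.17 that was -0.0083 with the GC trend removed. Members of that list went both ways. Ier5 had 60.5 and 54.6 CPM in WT mock, 39.4 and 51.6 in WT stress, 38.9 and 36.8 in CAA mock and 50.4 and 83.4 in CAA stress, an interaction of 1.16 ± 0.32 (SE). The nuclear receptor gene Nr4a2 had 48.3 and 30.5 CPM in WT mock, 34.3 and 25.6 in WT stress, 46.7 and 48.8 in CAA mock and 19.3 and 17.8 in CAA stress, an interaction of -0.97 ± 0.32 (SE). Its 2 CAA stress values were the lowest of the 8. Fos, Egr1 and Arc had -0.31, 0.21 and 0.76, with overlapping pairs in each.

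The lists for the stress hormone response had negative medians. Of 22 genes induced by glucocorticoids, 9 were positive, with a median of -0.15, and 0 had an unadjusted p under 0.05. Without CAA stress 2 that median was 0.053. Fkbp5, a chaperone that glucocorticoids induce, had 34.5 and 49.01 CPM in WT mock, 55.99 and 53.7 in WT stress, 59.1 and 44.4 in CAA mock and 61.99 and 60.2 in CAA stress, an interaction of -0.16 ± 0.28 (SE). In each genotype both stress values lay above both mock values, so both differences had the same sign. Sgk1 and Tsc22d3, both induced by the same receptor, had -0.23 ± 0.30 (SE) and -0.061 ± 0.60 (SE). Cdkn1a, a cell cycle inhibitor, had -1.05 ± 0.58 (SE), with WT mock 1 low at 17.4 CPM and the other 7 libraries between 30.9 and 59.9. Of 11 genes for the receptors and corticotropin-releasing hormone system, 3 were positive with a median of -0.11. Crhr1, the main receptor for corticotropin-releasing hormone, stood at 28.6 and 23.5 CPM in WT mock, 16.5 and 16.1 in WT stress, 14.7 and 14.1 in CAA mock and 15.5 and 19.02 in CAA stress. Its interaction was 0.94 ± 0.27 (SE) with an unadjusted p of 0.00563 in edgeR. WT mock held the 2 highest values and CAA mock the 2 lowest.

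Lists of cellular stress genes had negative medians as well. Of 15 targets of the integrated stress response, in which ATF4 raises genes of amino acid supply, 13 were negative (49.6% of all genes were), with a median of -0.19. In mean level all 4 CAA pairs lay below all 4 WT pairs, and the leave-one-out medians ran from -0.29 to -0.080. None of the 15 had an unadjusted p under 0.05. The pseudokinase gene Trib3 had 0.108 and 0.561 CPM in WT mock, 1.15 and 1.60 in WT stress, 0.876 and 0.676 in CAA mock and 0.981 and 0.964 in CAA stress, an interaction of -1.70 ± 0.97 (SE). Its WT mock 1 value lay far below the rest. The enzyme gene Asns had -0.30 ± 0.24 (SE), Atf4 itself -0.24 ± 0.27 (SE) and Ddit3 -0.32 ± 0.32 (SE). Of 14 heat shock genes 9 were negative, with a median of -0.22 that became 0.048 without WT stress 1. Hspa8, the constitutive HSP70, had -0.54 ± 0.26 (SE) and the inducible Hspa1a 0.89 ± 0.43 (SE).

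The microglial and myeloid lists were mostly negative. Of 21 tested genes that microglia raise around amyloid, 16 were negative, with a median of -0.24, 1 of them with an unadjusted p under 0.05 (1.48% of all genes were negative at that p) and 0 past the adjusted test in edgeR. Their mean centred level was -0.37 and -0.19 in WT mock, -0.090 and -0.19 in WT stress, 0.19 and 0.62 in CAA mock and -0.067 and 0.10 in CAA stress. CAA mock 2 was highest, and all 4 CAA pairs lay below all 4 WT pairs. Medians without each library in turn ran from -0.44 to -0.12, and with the GC trend removed the median was -0.34. Clec7a, a lectin receptor of such microglia, had 0 and 0.225 CPM in WT mock, 0.493 and 0.386 in WT stress, 0.993 and 2.20 in CAA mock and 0.109 and 0.750 in CAA stress, where WT mock 1 had no counts. Its interaction was -3.80 ± 1.51 (SE), and CAA mock held the 2 highest values. Ccl6, a chemokine, had 1.02 and 1.52 CPM in WT mock, 1.59 and 1.60 in WT stress, 3.10 and 5.86 in CAA mock and 1.36 and 3.0001 in CAA stress, an interaction of -1.36 ± 0.70 (SE). Cst7 had -3.02 ± 2.04 (SE) and Itgax -2.45 ± 1.60 (SE), both at under 5 CPM in each library. The lysosomal protease genes Ctsb and Ctsd had 0.0075 ± 0.21 (SE) and -0.18 ± 0.20 (SE), and the microglial receptor gene Trem2 0.089 ± 0.29 (SE). Gpnmb went the other way at 1.61 ± 0.74 (SE), with CAA stress 2 the highest at 5.20 CPM, and without that library the value was 0.55.

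Homeostatic microglial genes were negative in 10 of 16, with a median of -0.092 that changed sign when any of 3 libraries was left out. Their purinergic receptor gene P2ry12 had 33.8 and 37.8 CPM in WT mock, 38.8 and 21.7 in WT stress, 40.4 and 31.4 in CAA mock and 24.2 and 16.6 in CAA stress, an interaction of -0.58 ± 0.39 (SE). CAA stress 2 had the lowest P2ry12 value. Markers of macrophages at the brain's borders were negative in 9 of 11, with a median of -0.76 and medians of -1.21 without WT stress 2 and -0.46 without WT stress 1. In these genes WT stress 1 stood out. The antigen-presentation gene Cd74 had 1.56 and 2.30 CPM in WT mock, 7.72 and 4.08 in WT stress, 2.80 and 5.46 in CAA mock and 5.18 and 4.61 in CAA stress, an interaction of -1.37 ± 0.59 (SE). WT stress 1, which also held the most hemoglobin, had the highest Cd74 value. Ms4a7 had -2.87 ± 1.19 (SE) at under 1 CPM in each library.

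Genes that recruit leukocytes, with 10 of 22 tested, were negative in 7, with a median of -0.16. The monocyte chemokine gene Ccl2 had 0.108 and 0.168 CPM in WT mock, 4.11 and 0.606 in WT stress, 0 and 0.225 in CAA mock and 0.0545 and 0.0536 in CAA stress, an interaction of -5.02 ± 2.07 (SE), where CAA mock 1 had no counts. Most of its counts, and of those of Ccl7, came from WT stress 1. Without CAA mock 2 the value for Ccl2 was -0.89, and without WT mock 1 and CAA mock 2 together -0.61. Ccl7 had -5.05 ± 2.44 (SE) and the neutrophil chemokine gene Cxcl5 -2.27 ± 0.96 (SE). The adhesion molecules Icam1 and Vcam1 had -0.67 ± 0.69 (SE) and -0.21 ± 0.28 (SE). In mean level of the list all 4 CAA pairs lay below all 4 WT pairs, with a difference of -0.87 against the median of -0.16. That mean includes Ccl2 and Ccl7, which had 0 to 4 and 0 to 2 counts in the libraries outside WT stress. The list level was not computed without these genes. The median was -0.61 with a sex term, -0.63 in males, -0.57 without WT stress 2 and CAA stress 1 together, and 0.044 without CAA mock 2.

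Neutrophil genes, the study's stated interest, had few counts, and most could not be tested. Of the 20 listed, 7 had enough counts to test, 5 with a negative and 2 with a positive interaction, a median of -0.23 and 0 with an unadjusted p under 0.05. That median was 0.74 without CAA mock 2, 0.048 without WT mock 1 and CAA mock 2 together, and -0.54 in males. Csf3r, the receptor for the growth factor of granulocytes, had 5.59 and 3.99 CPM in WT mock, 5.31 and 4.52 in WT stress, 7.77 and 6.53 in CAA mock and 3.87 and 6.0002 in CAA stress, an interaction of -0.57 ± 0.45 (SE) with overlapping pairs. The calprotectin gene S100a8 had 10 and 2 counts in WT mock, 13 and 5 in WT stress, 2 and 28 in CAA mock and 32 and 8 in CAA stress. Replicates differed more than groups, and the interaction was -0.23 ± 1.57 (SE). Its partner S100a9 had -0.52 ± 1.57 (SE), and both changed sign without CAA mock 2. Mmp9, of the same list, went the other way at 1.06 ± 0.79 (SE), with overlapping pairs. The granule genes Mpo and Elane and the enzyme gene Padi4 were not tested. Mpo had 0 to 6 counts in each library, Elane 0 to 3, and Padi4, the citrullinating enzyme of extracellular trap formation, 0 to 2. A count of 0 allows up to 3 counts in a library, so no interaction is given for these 3 genes. The related enzyme gene Padi2, expressed in oligodendrocytes, had 0.63 ± 0.48 (SE), which became -0.061 with a term for sex. Complement genes were negative in 9 of 15 with a median of -0.20, which was 0.013 with a sex term and 0.15 without WT stress 1. C3ar1, the receptor for C3a, had 2.69 and 2.19 CPM in WT mock, 4.65 and 2.87 in WT stress, 3.39 and 3.83 in CAA mock and 2.34 and 1.88 in CAA stress, an interaction of -1.40 ± 0.53 (SE). C1ra, also a complement gene, went the other way at 1.45. Interferon response genes were positive in 12 of 17 with a median of 0.15, which was -0.018 without CAA mock 1. Irf7, a factor that drives interferon genes, had 1.86 ± 0.74 (SE) at no more than 2.91 CPM, 0.78 with a sex term and 1.16 without CAA stress 1.

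Lists for the cells of the vessel wall changed with the libraries included. Endothelial genes had -0.072 (8 of 20 positive), which was -0.43 with a sex term and ran from -0.29 to 0.18 as libraries were left out. Their von Willebrand factor gene Vwf had 14.1 and 10.6 CPM in WT mock, 10.7 and 14.2 in WT stress, 7.83 and 14.9 in CAA mock and 26.6 and 19.2 in CAA stress, an interaction of 0.99 ± 0.44 (SE). CAA stress held the 2 highest Vwf values. The tight junction gene Cldn5 had -0.32 ± 0.26 (SE). Smooth muscle and pericyte genes had a median of -0.20 (12 of 18 negative), with Acta2, smooth muscle actin, at -0.63 ± 0.40 (SE). Without WT mock 1 and CAA mock 2 that median was 0.010. Fibroblast and matrix genes had 0.48 (13 of 20 positive), and this rested in part on 1 library, since it was 0.066 without CAA stress 2. Decorin, described above, was its most negative member. Col1a2, a chain of type I collagen, had 9.41 and 10.2 CPM in WT mock, 10.8 and 11.1 in WT stress, 5.90 and 14.3 in CAA mock and 17.4 and 34.02 in CAA stress, an interaction of 1.18 ± 0.59 (SE), and Fbln1, a matrix protein of vessel walls, 0.83 ± 0.35 (SE). CAA stress 2 was the highest for both.

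Glial lists overlapped between the genotypes. Reactive astrocyte genes had a median of -0.31 that became 0.11 without CAA mock 2. Gfap, the intermediate filament of astrocytes, had 323 and 197 CPM in WT mock, 162 and 189 in WT stress, 390.2 and 676 in CAA mock and 317 and 251 in CAA stress, an interaction of -0.34 ± 0.42 (SE). CAA mock 2 held by far the most. General astrocyte genes had -0.096, which ran from -0.38 to 0.12 as libraries were left out. Myelin genes had -0.096, with a range of -0.81 to 0.31. With a sex term the myelin median was -0.999, and in males -1.01 with 0 of 16 positive. For precursors of oligodendrocytes the median was -0.043, with 5 of 13 positive. The membrane protein gene Lhfpl3 of that list had -0.86 ± 0.32 (SE). Neu4 and Gpr17 went the other way, at 0.64 ± 0.33 (SE) and 0.41 ± 0.27 (SE).

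Genes of the amyloid pathway went both ways. Of 20 genes 9 were positive, with a median of -0.065 that changed sign without any of 6 single libraries. App had 1257 and 1053 CPM in WT mock, 1166 and 1133 in WT stress, 1072 and 1043 in CAA mock and 1222 and 1337 in CAA stress, an interaction of 0.28 ± 0.21 (SE). Both CAA stress values lay above both CAA mock values, and the WT groups overlapped. All 4 CAA pairs of App lay above all 4 WT pairs, as they did in 7.56% of all genes. The unadjusted p of App was 0.21 in edgeR. Thy1, a neuronal surface protein whose promoter often drives transgenes, had 505 and 434 CPM in WT mock, 466 and 457 in WT stress, 791 and 709 in CAA mock and 729 and 1034 in CAA stress. All CAA values lay above all WT values, and the interaction was 0.26 ± 0.26 (SE). Lrp1, a receptor that clears amyloid-beta, had 318 and 228 CPM in WT mock, 231 and 259 in WT stress, 246 and 267 in CAA mock and 343 and 424 in CAA stress, an interaction of 0.74 ± 0.26 (SE) with an unadjusted p of 0.0168 in edgeR. Prnp had -0.024 ± 0.20 (SE). Wdfy1 and Ngef, an adaptor of Toll-like receptors and a guanine nucleotide exchange factor, had -0.23 ± 0.27 (SE) and 0.20 ± 0.32 (SE). Wdfy1 stood at 47.3 to 65.7 CPM in the CAA libraries and 9.87 to 12.5 in WT, and Ngef at 40.4 to 70.9 in CAA and 257 to 319.9 in WT.

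Lists that mark brain regions had medians that changed sign with single libraries. Choroid plexus genes had a median of -1.11 (18 of 20 negative), and 1.20 without WT stress 2. The folate receptor gene Folr1 of that list had 0.215 and 0.0561 CPM in WT mock, 0.383 and 4.74 in WT stress, 1.99 and 0.282 in CAA mock and 2.83 and 0.321 in CAA stress. WT stress 2 and CAA stress 1 were its 2 highest libraries. Striatal genes had a median of 0.089, between -2.37 without WT mock 2 and 1.84 without CAA mock 1, and Tac1, a neuropeptide gene of the striatum, had 16.7 and 101 CPM in WT mock, 106 and 82.7 in WT stress, 86.7 and 20.1 in CAA mock and 73.002 and 48.9 in CAA stress. Its low values in WT mock 1 and CAA mock 2 enter the interaction with opposite signs. Hypothalamic, olfactory bulb, hippocampal, thalamic and cerebellar lists had -0.11, 0.66, 0.37, -0.39 and 0.26, and each changed sign when some library was left out. The ependymal list had -0.31 and the monoamine and cholinergic list -0.84, with sign changes as well.

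Red cell genes were negative in 6 of 6, with a median of -2.60 that became -0.20 without WT stress 1. The alpha-globin gene Hba-a1 had 3.50 and 2.58 CPM in WT mock, 45.6 and 5.18 in WT stress, 3.50 and 2.08 in CAA mock and 6.49 and 0.964 in CAA stress, and WT stress 1 stood far above the other 7. Genes of the mitochondrial genome were negative in 10 of 13, with a median of -0.39. Their GC contents are low, with a median of 37.1%, and the median interaction became -0.015 with the GC trend removed. mt-Nd1, a subunit of respiratory complex I, had 11317 and 12370.0 CPM in WT mock, 12841 and 11573 in WT stress, 11062 and 12245 in CAA mock and 9372 and 6770.2 in CAA stress, an interaction of -0.57 ± 0.26 (SE). CAA stress 2 was the lowest and CAA stress 1 the next. Nuclear genes of the respiratory chain had -0.0084 and cytosolic ribosomal proteins -0.079.

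Of the 38 lists, 10 kept the sign of their median as each library was left out in turn. They were the clock, excitatory neuron, fibroblast and integrated stress lists, the glucocorticoid receptor system, microglia around amyloid, border macrophages, smooth muscle and pericytes, red cells and the mitochondrial genome. The fits with a library left out share most libraries with the full fit, so a kept sign is likely in advance and adds no support. The smooth muscle and pericyte median was only -0.0027 without CAA mock 2.

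**Figure D5:**
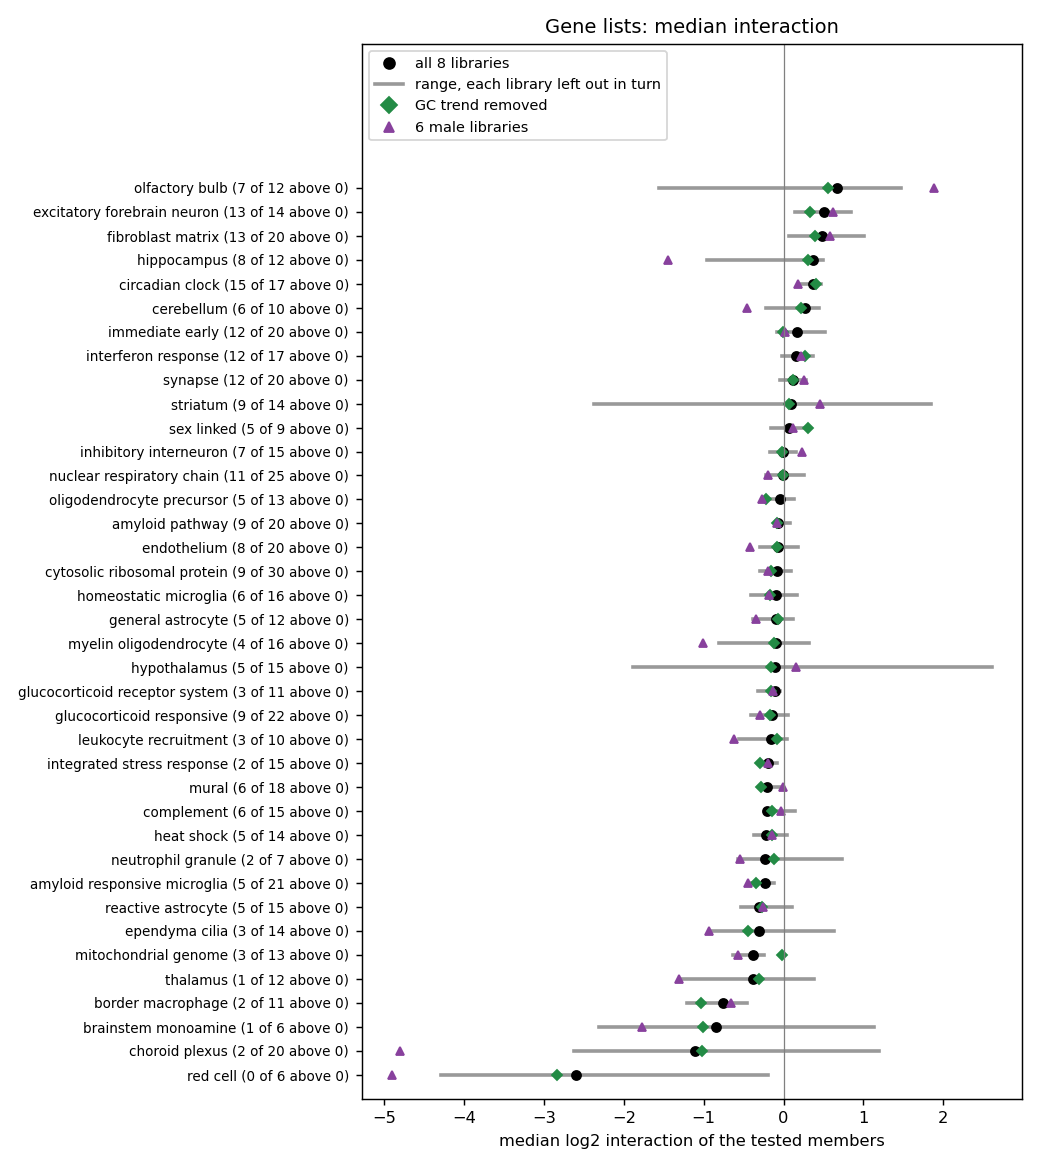
Median log2 interaction of the tested members of 38 gene lists (black), with the range when each library was left out in turn (grey), after removal of the GC trend (green) and in the 6 male libraries (purple). The clock list stays above 0 in all of these (0.18 to 0.46 with libraries left out), the amyloid-responsive microglia list stays below (-0.44 to -0.12), and region lists such as striatum (-2.37 to 1.84) cross 0.

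Other settings of the test called a few genes, named here after their values were seen. Without a filter on low counts, edgeR called 17 genes, 11 positive and 6 negative, among 29446, with a spread borrowed almost wholly across genes. They include Fabp7, Dcn, Ide and mt-Tc (negative) and Ccl27a, Dbp, Cux2 and Adra1d (positive), all described above, with adjusted p between 1.53e-05 and 0.0198. Cacna1g, a T-type calcium channel, was among them at 74.6 and 46.4 CPM in WT mock, 36.3 and 55.1 in WT stress, 37.6 and 49.2 in CAA mock and 61.7 and 96.8 in CAA stress. Its CAA stress values lay above both CAA mock values, and its WT groups overlapped. Without WT mock 1 and CAA mock 2, edgeR called Gapdh, a glycolytic enzyme often used as a reference gene, with an interaction of -4.48 and an adjusted p of 0.00719. Gapdh had 102 and 2.13 CPM in WT mock, 2.57 and 4.02 in WT stress, 92.5 and 21.5 in CAA mock and 7.31 and 5.52 in CAA stress. WT mock 1 and CAA mock 1 were both far above the other 6, and one of them is left out in that setting. The Gapdh row held 38 counts in WT mock 2 and 1894 in WT mock 1, which is few for a reference gene. How reads shared with other genes were counted is not stated, so the Gapdh reads are uncertain. Without WT stress 2 and CAA stress 1, edgeR called Hbb-bs (-5.93) and Hba-a1 (-5.41), both carried by WT stress 1. Without WT mock 2 it called Slc10a4, a transporter of cholinergic neurons, at -6.75, where WT mock 1 had 1 count and the other 7 libraries 84 to 129. In each of these the remaining group of 1 library was assumed to vary like the others.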

How the data were processed

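Per the labels' protocols, total RNA came from RNeasy columns and an Illumina kit was used for the libraries. The authors counted reads per gene with HISAT2 2.0.5 and featureCounts 1.5.0-p3 on mm10, per the submitters' processing notes, and deposited raw counts for 54532 genes and, separately, FPKM values. Neither strandedness nor counting parameters are stated in these sources, so reads of overlapping genes cannot be told apart. No count row lacked a gene name (0 rows), and 25086 genes had no counts.

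Samples were grouped by title. Counts were tested with edgeR 4.0.16 (R 4.3.3): filterByExpr (minimum count 10, minimum total 15), TMM scaling, and a robust quasi-likelihood fit of 4 group means over 8 libraries (residual df 4, prior df 7.29, biological coefficient of variation 0.206). The interaction was a contrast of these means. The two-sided test used a Benjamini-Hochberg threshold of 0.05 over 17182 genes. Pairs of libraries were compared on log2 CPM with a prior count of 2. List levels are means of centred log2 CPM. GC content came from GENCODE vM21 transcripts, joined by gene ID (99.89% of tested genes).

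The gene lists (38, of which 1 listed symbol was not in the table), the tests and the naming rule were set with earlier results of these data known. The rule takes the 12 genes of smallest p in each direction, with at least 1 CPM and no clone-style symbol, the 3 of smallest p in each list, and 18 genes always reported. Other list members are given to describe their list. Not all genes the rule takes are printed, and 1 gene in each of 2 lists is counted but not reported here. DESeq2 1.42.0, limma 3.58.1 on log2(FPKM + 1) or log2(FPKM + 0.1), no filter, DESeq2's size factors, a sex term, males only, the replicate block and each library left out were alternatives. The GC correction and the omission of the choroid-rich libraries were added after seeing the data. The edgeR test was checked on simulated counts for 16842 genes.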

Additional observations from a re-analysis of the deposited data

How the results depend on the processing

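The edgeR count of genes past an adjusted p of 0.05 for the interaction stayed at 0 in either direction with DESeq2's size factors, the replicate block, a sex term, the 6 male libraries and the GC trend removed, and with limma on either FPKM scale. It was 11 positive and 6 negative without the filter on low counts, 1 positive with DESeq2, 1 negative without the low-striatum pair and 2 negative without the choroid-rich pair, and leaving out each library gave 0 to 1 negative. For stress in WT the calls were 8 higher and 3 lower without the filter, 1 higher in males, and 0 to 2 higher as libraries were left out. For stress in CAA they were 70 higher and 42 lower without the filter, 2 higher with the sex term, 8 higher in males, and 6 higher and 8 lower with DESeq2. The Pearson correlation of both stress effects was -0.062 over genes of at least 10 CPM and -0.024 in males. The cause of these moves was not tested, except that leaving out libraries also leaves fewer residual degrees of freedom and other genes past the filter.

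Replicate numbers in the titles did not pair the samples: the 6 correlations of deviations between groups ran from -0.27 to 0.14, with 1 over 0.1. With the replicate block edgeR called 0 genes for the interaction, and 460 had an unadjusted p under 0.05 (595 without the block).

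With a sex term the sign of the interaction reversed for Padi2 (-0.061), Uty (0.11), Fkbp5 (0.066), Kdm5d (0.12), Ppp1r14a (-0.38), Tac1 (0.36), Ramp3 (-0.49). In the 6 male libraries the sign of the interaction reversed for Padi2 (-0.055), Uty (0.12), Fkbp5 (0.067), Kdm5d (0.13), Ppp1r14a (-0.37), Ramp3 (-0.53). Without the low-striatum pair the sign of the interaction reversed for Wdfy1 (0.023), Ngef (-0.060), S100a9 (3.88), S100a8 (1.07). By limma on log2(FPKM + 1) the sign of the interaction reversed for S100a9 (0.0044), S100a8 (0.055). By limma on log2(FPKM + 0.1) the sign of the interaction reversed for S100a9 (0.43), S100a8 (0.13). Without the choroid-rich pair the sign of the interaction reversed for Prnp (0.019), C3 (0.057), Ido1 (-0.20). As each library was left out in turn, the value took both signs for Thy1 (-0.022 to 0.51), Gfap (-0.74 to 0.11), Ngef (-0.15 to 0.67), Fkbp5 (-0.43 to 0.077), S100a9 (-1.66 to 3.49), S100a8 (-1.72 to 2.56), Prnp (-0.10 to 0.063), Aspa (-1.21 to 0.011), Rasd2 (-0.26 to 1.67), Ido1 (-2.85 to 3.71), Tac1 (-2.30 to 0.92), Pomc (-0.12 to 1.65), Tbx21 (-1.39 to 3.44), Mfrp (-7.32 to 1.43), Gbx2 (-3.47 to 0.54), Ramp3 (-0.21 to 1.79), Zbtb20 (-0.028 to 0.53), Slc18a3 (-2.72 to 0.16), Hba-a2 (-4.02 to 0.89). None of these genes passed the adjusted test in either setting, and the cause of the sign changes was not tested. Of the list medians, 397 values under an alternative stayed within 1 SD of the replicates and 135 moved further. Each group had 2 libraries, each of at least 17275201 counts, and the parts of library number and depth in the error were not tested.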
